A study of Mus musculus with 37 samples.

Results

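The 4 opioid receptor genes of the mouse and 3 of its opioid peptide precursor genes were followed in dopamine and GABA neurons of the ventral midbrain. They are Oprm1 (mu receptor), Oprk1 (kappa receptor), Oprd1 (delta receptor), Oprl1 (nociceptin receptor), Penk (proenkephalin), Pdyn (prodynorphin) and Pnoc (prepronociceptin). They were picked by gene symbol, and all 7 were found among the 57180 genes counted. The questions were how translated RNA of each gene compared between the dopamine and the GABA neuron model, and between old and young mice.

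Both models carry NuTRAP, a transgene at the Rosa26 locus that, once Cre has removed a stop sequence, tags the L10a ribosomal protein with EGFP, so that RNA on tagged ribosomes can be pulled down with an antibody to GFP. In DAT;NuTRAP mice Cre comes from the DAT-IRES-Cre allele, at the dopamine transporter gene Slc6a3. In VGAT;NuTRAP mice it comes from Vgat-ires-cre, at the vesicular GABA transporter gene Slc32a1. The tag therefore marks every cell of the tissue piece that has made Cre, and the pieces held the substantia nigra pars compacta and the ventral tegmental area together. There were 19 DAT;NuTRAP libraries and 18 VGAT;NuTRAP libraries, each from the GFP-bound RNA of 1 mouse. The 9 old DAT;NuTRAP mice (5 males and 4 females) were 21 months old, and the 10 young ones (5 males and 5 females) were 8 months (2 mice), 9 months (7) or 10.5 months (1). The 8 old VGAT;NuTRAP mice (3 males and 5 females) were 21 months (7 mice) or 24 months old (1), and the 10 young ones (4 males and 6 females) were 7 months (2), 8.5 months (4) or 9 months (4). No mouse received a treatment.

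Libraries held 13841253 to 38235015 counts in DAT;NuTRAP and 19065284 to 35054329 in VGAT;NuTRAP. They came in a first batch (8 DAT;NuTRAP and 6 VGAT;NuTRAP) and a second batch (11 and 12). The second batch of DAT;NuTRAP detected fewer genes per library (14323 to 18170) than its first batch (19085 to 21051). The models held the markers of their labels: the summed level of 10 dopamine neuron markers was 14289 to 21655 CPM (counts over the scaled library size) in DAT;NuTRAP and 1231 to 4584 CPM in VGAT;NuTRAP, and that of 8 GABA neuron markers was 530 to 904 CPM in DAT;NuTRAP and 4032 to 5196 CPM in VGAT;NuTRAP. Each fraction therefore also held RNA of the other neuron's markers, and Slc6a3 itself was at 249 to 1238 CPM in VGAT;NuTRAP libraries. The library old VGAT;NuTRAP male 2 held 143 counts of Xist, RNA of the inactive X chromosome, where the 6 other males held 0 to 2 and the 11 females 77 to 601, beside 2645 counts of the Y-linked Ddx3y, in the range of the other males (1880 to 2906). Leaving that library out changed no member's call.

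Opioid receptors are membrane receptors that act through inhibitory G proteins: they lower cyclic AMP, open potassium channels of the GIRK type and reduce transmitter release. Their ligands are short peptides cut from longer precursor proteins at pairs of basic amino acids. Enkephalins, from Penk, act at the delta and mu receptors, dynorphins, from Pdyn, at the kappa receptor, and nociceptin, from Pnoc, at the nociceptin receptor. In the ventral midbrain, mu receptors are known for inhibiting GABA neurons, which frees dopamine neurons from inhibition, and kappa receptors for inhibiting dopamine neurons directly.

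The precursors differ in how many peptides they encode, and this is shown here because the same RNA level stands for different numbers of peptide copies. The first 4 amino acids of every enkephalin and dynorphin are Tyr-Gly-Gly-Phe, while nociceptin opens with Phe-Gly-Gly-Phe. Reading the coding sequences of the GRCm39 genome in frame gave 7 copies of this core in Penk, 3 in Pdyn and 1 of the nociceptin form in Pnoc. Of the 7 Penk cores, 6 were followed by a methionine codon, as in Met-enkephalin, and 1 by a leucine codon, as in Leu-enkephalin, and all 3 Pdyn cores were followed by leucine. A pair of basic codons stood directly before each of the 11 cores. Directly after the fifth codon such a pair stood in 5 of the 7 Penk copies, not in copies 4 and 7, in all 3 Pdyn copies and not in the Pnoc copy. At least 1 in-frame Tyr-Gly-Gly-Phe was found in 73 of 21593 mouse coding sequences (0.338%), 3 or more in 4 (0.0185%), and Phe-Gly-Gly-Phe in 106 (0.491%). The lines give the windows of 27 bases, 5′ to 3′ on the coding strand, which is the minus strand for all 3 genes. Capitals mark the 12 bases of the core, the 6 before it are the preceding codons and the 9 after it the following ones. Shown are a Met- and the Leu-enkephalin copy and the last copy of Penk, all 3 copies of Pdyn and the copy of Pnoc.
Penk copy 1 (chr4:4134328-4134354): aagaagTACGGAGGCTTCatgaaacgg
Penk copy 6 (chr4:4133935-4133961): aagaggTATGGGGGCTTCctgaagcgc
Penk copy 7 (chr4:4133842-4133868): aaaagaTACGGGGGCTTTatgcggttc
Pdyn copy 1 (chr2:129530152-129530178): aaacgcTATGGCGGCTTTttgcgcaaa
Pdyn copy 2 (chr2:129530044-129530070): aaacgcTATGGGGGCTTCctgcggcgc
Pdyn copy 3 (chr2:129529987-129530013): aagcgcTATGGTGGTTTCctgcggcgt
Pnoc copy 1 (chr14:65642321-65642347): aaaaggTTTGGGGGCTTCaccggggcc

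The genes themselves lie apart on GRCm39. Oprm1 is at chr10:6708506-6988198 (plus strand), Oprk1 at chr1:5658667-5676375 (plus), Oprd1 at chr4:131838037-131871842 (minus) and Oprl1 at chr2:181356605-181363728 (plus). Penk is at chr4:4132722-4141856, Pdyn at chr2:129528469-129541945 and Pnoc at chr14:65638122-65663196, all on the minus strand. In the annotation, 390 bases of Penk exons overlap the long noncoding gene A830012C17Rik on the opposite strand, and 96 bases of Oprm1 exons overlap Ipcef1 on the opposite strand. The strand setting of the counting was not given, so the part of such reads in the counts of these genes was not tested.

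In dopamine neurons compared with GABA neurons, the kappa receptor was higher and the mu, delta and nociceptin receptors, proenkephalin and prepronociceptin were lower. Pnoc and Oprd1 were each about 6 times lower in DAT;NuTRAP. The fitted fold was larger still for Oprm1 over all libraries, but not in the first batch alone, where Pnoc (-2.66 on the log2 scale) and Oprd1 (-2.22) were further from 0 than Oprm1 (-1.97). Pdyn did not pass the test. All 37 libraries were fitted together with edgeR's quasi-likelihood test, and a gene was called at a Benjamini-Hochberg adjusted p below 0.05. By this rule 6 of the 7 genes were called (1 higher, 5 lower in DAT;NuTRAP), while 60.5% of the 16898 genes tested were called (30.0% higher and 30.4% lower). In 4 of the 7, Oprk1, Oprd1, Penk and Pnoc, no library of the one model overlapped any of the other, as in 8.36% of the 16898 genes (1413). The fractions are bulk RNA, so fewer cells of a type cannot be told apart from less RNA per cell.

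**Figure D1:**
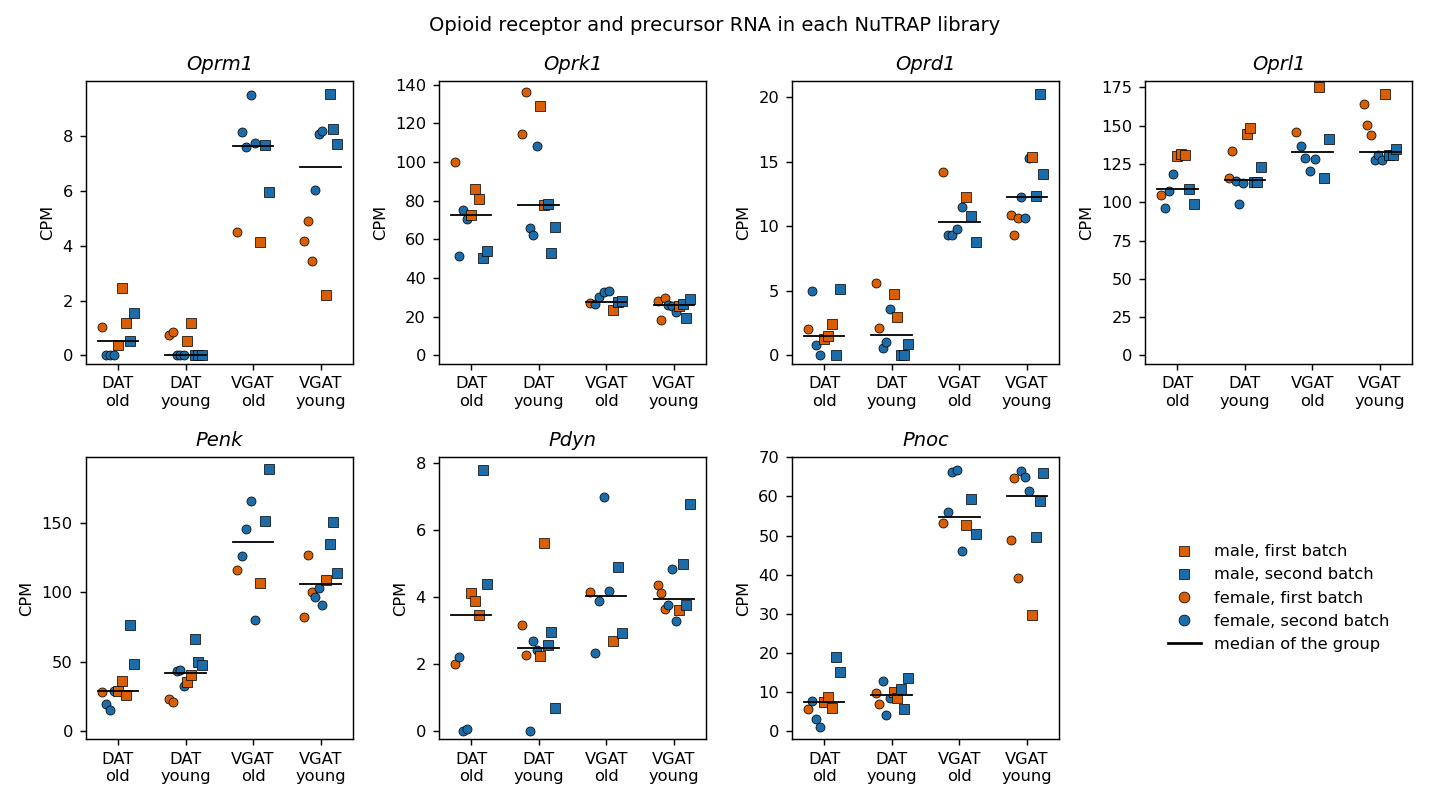
Level of each opioid receptor and precursor gene (CPM, linear axis from 0) in every library, with old before young and DAT;NuTRAP before VGAT;NuTRAP; squares are males, circles females, colours the batches and lines the group medians. Oprk1 stands above all VGAT;NuTRAP libraries in all 19 DAT;NuTRAP libraries, Oprd1, Penk and Pnoc stand below them in all 19, and Oprm1 is at 0 in 9.

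Oprk1, whose receptor binds dynorphins, was the only member higher in dopamine neurons. It was at 50.4 to 136 CPM (median 75.2) in the 19 DAT;NuTRAP libraries and at 18.6 to 33.5 CPM (median 27.0) in the 18 VGAT;NuTRAP libraries, with no overlap. The log2 fold change was 1.51 ± 0.10 (SE), a 2.84-fold higher level (edgeR adjusted p = 9.69e-17). The highest DAT;NuTRAP values were in young mice of the first batch, 136 CPM in female 2, 129 CPM in male 1 and 115 CPM in female 1. The lowest VGAT;NuTRAP library, young female 2, also had the lowest summed dopamine neuron markers of that model (1231 CPM). How much of the Oprk1 RNA of VGAT;NuTRAP came with the dopamine neuron markers was not tested.

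Oprm1, the receptor of morphine, was close to the detection limit in dopamine neurons. It was at 0 to 2.44 CPM in DAT;NuTRAP, with no count in 9 of 19 libraries, and at 2.19 to 9.52 CPM (median 7.63) in VGAT;NuTRAP. In 18 of 19 DAT;NuTRAP libraries the level was below the lowest VGAT;NuTRAP library, and old male 2 (2.44 CPM) was the exception. All 9 libraries without a count were of the second batch, where only old male 4 (0.51 CPM, 19 counts) and old male 5 (1.54 CPM) had any. A library without a count still allows a level of 3 counts, which was 0.0776 to 0.214 CPM. This limit covers counting error only.

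The fitted log2 fold change of Oprm1 was -4.30 ± 0.60 (edgeR adjusted p = 9.70e-08), but its size depended on the batch. It was -1.97 ± 0.32 in the first batch alone (edgeR adjusted p = 5.84e-05) and -7.51 ± 0.76 in the second (8.73e-09), where most DAT;NuTRAP libraries were at 0. Among young mice of the second batch, Oprm1 was at 0 in all 6 DAT;NuTRAP libraries and at 6.04 to 9.52 CPM (mean 7.97) in the 6 VGAT;NuTRAP libraries. Set against the mean limit of 3 counts per library (0.116 CPM), this is 68.8-fold lower. The limit covers counting error only and these DAT;NuTRAP libraries detected fewer genes, so 68.8-fold is not a firm lower bound.

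Oprd1, the main enkephalin receptor beside the mu receptor, was also low in dopamine neurons. It was at 0 to 5.59 CPM (median 1.55) in DAT;NuTRAP, with no count in 4 second-batch libraries, and at 8.79 to 20.3 CPM (median 11.2) in VGAT;NuTRAP. The models did not overlap, and the log2 fold change was -2.63 ± 0.46 (6.21-fold lower, edgeR adjusted p = 7.85e-06). The lowest VGAT;NuTRAP value was in old male 3 and the highest in young male 3.

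Oprl1, the nociceptin receptor, was the most abundant of the 4 and the least different. It was at 96.0 to 149 CPM (median 114) in DAT;NuTRAP and at 116 to 175 CPM (median 133) in VGAT;NuTRAP. The groups overlapped: 11 of 19 DAT;NuTRAP libraries were below the lowest VGAT;NuTRAP library and 8 were within their range. The log2 fold change was -0.26 ± 0.04, a 1.20-fold lower level in DAT;NuTRAP (edgeR adjusted p = 9.10e-07).

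Penk was the most abundant precursor in both models and lower in dopamine neurons. It was at 15.0 to 76.5 CPM (median 35.5) in DAT;NuTRAP and at 79.6 to 189 CPM (median 115) in VGAT;NuTRAP. The highest DAT;NuTRAP library, old male 4 with 76.5 CPM, came close to the lowest VGAT;NuTRAP library, old female 5 with 79.6 CPM, but the models did not overlap. The log2 fold change was -1.70 ± 0.15 (3.24-fold lower, edgeR adjusted p = 2.72e-12).

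Pnoc showed the widest separation of the precursors. It was at 0.984 to 19.0 CPM (median 8.50) in DAT;NuTRAP and at 29.7 to 66.9 CPM (median 57.5) in VGAT;NuTRAP, a log2 fold change of -2.66 ± 0.21 (6.32-fold lower, edgeR adjusted p = 1.21e-13). Within DAT;NuTRAP the levels spanned 19.3-fold, with old female 4 lowest and old male 4 highest.

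Pdyn, the precursor of dynorphins, was low in both models. It was at 0 to 7.79 CPM (median 2.57) in DAT;NuTRAP, with no count in 2 libraries, and at 2.34 to 6.97 CPM (median 4.00) in VGAT;NuTRAP. Of the 19 DAT;NuTRAP libraries, 8 were below the VGAT;NuTRAP range, 10 within it and 1, old male 4, above it. The log2 fold change was -0.63 ± 0.38 (edgeR adjusted p = 0.154), with an approximate 95% interval of -1.37 to 0.12. The value moved with the batch, -0.14 ± 0.24 in the first batch alone and -0.92 ± 0.59 in the second, neither called. A fit of both batches with a separate batch term for each model, read at the level of the first batch, gave -0.13 ± 0.61.

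The highest level of all 3 precursors in DAT;NuTRAP was in the same library, old male 4. That library also had the highest summed level of 6 hypothalamic peptide genes (103 CPM, against a median of 11.4 CPM over DAT;NuTRAP) and, at 904 CPM, was at the upper end of the GABA neuron markers. Markers of further cells differed between the models as well. All 8 astrocyte, 8 oligodendrocyte and 5 endothelial markers were higher in DAT;NuTRAP and none of 8 microglia markers was called. Of 10 striatal medium spiny neuron markers, 2 were higher and 5 lower. The part of these cells in the levels of the opioid genes was not tested.

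The same 6 genes were called in old and in young mice taken alone, with the same directions, where 46.8% and 49.8% of all genes were called. For Oprk1, the log2 fold change of DAT;NuTRAP over VGAT;NuTRAP was 1.22 ± 0.15 in old mice and 1.79 ± 0.13 in young mice. For Oprm1 it was -3.63 in old and -4.97 in young mice, for Oprd1 -2.48 and -2.79, and for Oprl1 -0.31 and -0.21. The precursors gave -1.91 in old and -1.48 in young mice (Penk), -0.41 and -0.84 (Pdyn), and -2.73 and -2.59 (Pnoc).

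**Figure D2:**
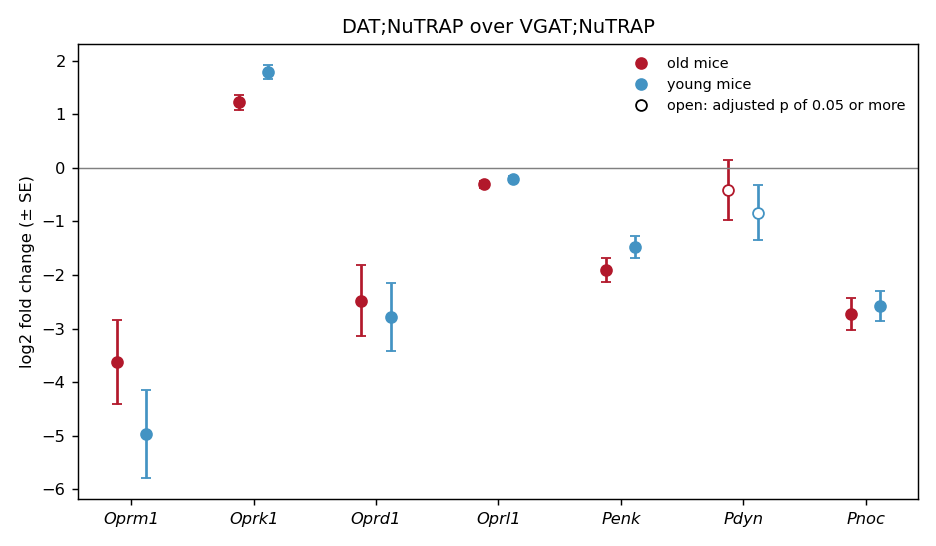
Log2 fold change of DAT;NuTRAP over VGAT;NuTRAP for each gene (points, with SE bars), in old and in young mice; open points did not pass an adjusted p of 0.05. Oprk1 lies above 0 and Oprm1, Oprd1, Oprl1, Penk and Pnoc below it at both ages, while Pdyn is open at both.

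Within each batch taken alone, the same 6 genes were called across ages, where 43.9% of 16713 genes were called in the first batch and 56.6% of 17276 in the second. Oprk1 gave a log2 fold change of 1.94 in the first batch and 1.26 in the second, Oprd1 -2.22 and -3.04, Penk -1.86 and -1.61, and Pnoc -2.66 and -2.69. A fit with a separate batch term for each model gives their difference at the level of the first batch, not over both batches. In old mice it was -0.73 ± 0.90 for Oprm1 (edgeR adjusted p = 0.663) and -1.81 for Oprd1 (0.172). The calls of these 2 rarely counted genes at that age thus did not hold in this fit. Both genes stayed called in old mice when the first batch was fitted alone. Across both ages the same fit gave Oprm1 -1.82 (edgeR adjusted p = 0.0279), near the -1.97 of the first batch alone.

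Levels of different genes can be compared only per length, so counts were also divided by exon length (RPKM, CPM per kilobase of exon). That length joins all annotated exons of a gene and can differ from the transcript present, so shares and orders depend on it. The summed RPKM of the 4 receptors was 31.7 ± 5.0 (SD, n = 19) in DAT;NuTRAP and 33.0 ± 3.0 (n = 18) in VGAT;NuTRAP, closer than 1 SD. The shares describe its make-up and were not tested beyond the genes' own tests. Oprl1 made up 71.0 ± 5.6% in DAT;NuTRAP and 79.6 ± 3.0% in VGAT;NuTRAP. Oprk1 made up 27.2 ± 5.1% in DAT;NuTRAP and 8.88 ± 1.66% in VGAT;NuTRAP, and the lowest DAT;NuTRAP share (21.0%) was above the highest VGAT;NuTRAP share (11.8%). Oprd1 took 1.61 ± 1.55% of the sum in DAT;NuTRAP and 9.01 ± 2.11% in VGAT;NuTRAP, and Oprm1 0.206 ± 0.263% and 2.53 ± 0.96%.

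The order of RPKM among receptors was Oprl1, Oprk1, Oprd1, Oprm1 in 15 of 19 DAT;NuTRAP libraries, and in the other 4 the last 2 changed places. In VGAT;NuTRAP, Oprl1 was first and Oprm1 last in all 18, with Oprk1 above Oprd1 in 9 and below it in 9, so these neighbours did not differ beyond their spread. For the precursors the order was Penk, Pnoc, Pdyn in all 37 libraries. Their summed RPKM was 14.8 ± 6.1 in DAT;NuTRAP and 58.5 ± 10.5 in VGAT;NuTRAP. A further opioid precursor gene, Pomc, is not part of this order, sum or shares. Penk made up 72.4 ± 8.6% of the sum in DAT;NuTRAP and 59.2 ± 6.5% in VGAT;NuTRAP, Pnoc 24.0 ± 7.8% and 39.4 ± 6.4%, and Pdyn 3.55 ± 2.14% and 1.39 ± 0.39%.

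**Figure D3:**
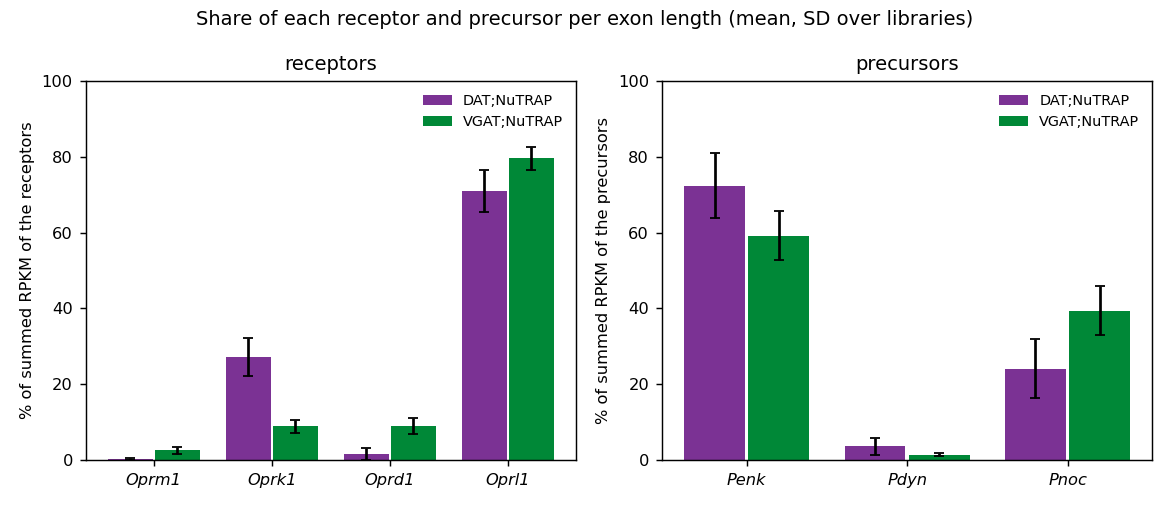
Share of each receptor (left) and precursor (right) in the summed RPKM of the 4 receptors or of the 3 precursors, without Pomc. Bars are mean and SD over 19 DAT;NuTRAP and 18 VGAT;NuTRAP libraries. Oprl1 and Penk take the largest shares in both models, and Oprk1 holds 27.2% of the receptor sum in DAT;NuTRAP and 8.88% in VGAT;NuTRAP.

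The genes that process the precursors and carry the receptors' signal were followed as a list of 52 genes. In the comparison of the models 23 were higher and 16 lower in DAT;NuTRAP and 13 were not called, with a median log2 fold change of 0.23 against 0.01 over all genes. The shares, 44.2% higher and 30.8% lower, stand beside 30.0% and 30.4% of all genes. Astrocyte, oligodendrocyte and endothelial markers were higher in DAT;NuTRAP too, and the part of those cells in the pathway values was not tested. Of the 8 genes that process precursors, 6 were higher in DAT;NuTRAP and none lower, among them Cpe (carboxypeptidase E, log2 fold change 0.68 ± 0.03) and Ctsl (cathepsin L, 0.72 ± 0.06). Of the 6 genes whose products break the peptides down, 3 were higher (Ece1, endothelin-converting enzyme 1, 0.81 ± 0.05) and 1 lower (Mme, neprilysin, -2.87 ± 0.16).

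On the receptor side, 3 of 4 GIRK channel subunits were lower in DAT;NuTRAP, including Kcnj5 (-2.41 ± 0.31) and Kcnj3 (-1.81 ± 0.12), and 1 was higher (Kcnj6, 0.95 ± 0.24). Adenylyl cyclases, which make cyclic AMP, were lower for 6 of 7, such as Adcy2 (-1.16 ± 0.05) and Adcy8 (-1.58 ± 0.12), and higher for Adcy5 (0.33 ± 0.06). Of 5 inhibitory G protein alpha subunits, 2 were higher (Gnai2, 0.96 ± 0.05, and Gnaz, 0.34 ± 0.06) and none lower. Receptor kinases and arrestins, which end signalling, were mixed (3 higher, 2 lower of 7), with Grk3 at 0.97 ± 0.06 and Arrb1 at -0.45 ± 0.05. So were the RGS proteins, which switch G proteins off (4 higher, 4 lower of 10), with Rgs20 at 0.83 ± 0.08 and Rgs10 at -2.02 ± 0.14. Of 4 proteins that bind opioids but are not classical receptors, Ackr3 (1.42 ± 0.48), a scavenger of opioid peptides, and Ogfr (0.82 ± 0.08) were higher.

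Pomc, the precursor of beta-endorphin, was higher in DAT;NuTRAP by 1.75 ± 0.37 on the log2 scale (edgeR adjusted p = 8.00e-05). It was at 0 to 22.2 CPM (median 3.08) in DAT;NuTRAP and at 0.517 to 3.70 CPM (median 1.15) in VGAT;NuTRAP, and the groups overlapped. Pomc is also a marker of hypothalamic neurons. The summed level of the 6 hypothalamic peptide genes was 3.29 to 103 CPM in DAT;NuTRAP and 1.83 to 33.3 CPM in VGAT;NuTRAP, and its part in the Pomc difference was not tested.

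With age, none of the 7 genes passed the test in either model. In DAT;NuTRAP 0.00672% of 14889 genes (1 gene) were called between old and young mice, and in VGAT;NuTRAP 0.0256% of 15607 (4 genes). At an unadjusted p below 0.05, 2 members of 786 such genes in DAT;NuTRAP and 1 of 934 in VGAT;NuTRAP were found. None of the 51 genes of the pathway list tested was called in either model.

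Oprk1 was the member with the smallest unadjusted p in dopamine neurons. It was at 50.4 to 99.9 CPM (median 72.6) in old and at 52.7 to 136 CPM (median 77.8) in young DAT;NuTRAP mice, and the groups overlapped over most of their range. The log2 fold change of old over young was -0.34 ± 0.12 (unadjusted p = 0.00993, edgeR adjusted p = 0.924), with an interval of -0.57 to -0.10, and was -0.44 in the first batch and -0.26 in the second. In VGAT;NuTRAP, Oprk1 was at 23.6 to 33.5 CPM (median 27.8) in old and 18.6 to 29.5 CPM (median 26.0) in young mice, with a log2 fold change of 0.18 ± 0.09 (edgeR adjusted p = 0.839). The age effect in DAT;NuTRAP less that in VGAT;NuTRAP was -0.57 ± 0.19 (unadjusted p = 0.00489, edgeR adjusted p = 1.00). In that test 0% of the 16898 genes were called and 467 had an unadjusted p below 0.05, Oprk1 alone among the members.

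Oprm1 had the largest fitted age difference in DAT;NuTRAP, 3.03 ± 1.25 (unadjusted p = 0.0217, edgeR adjusted p = 0.931). Libraries without counts were spread unequally over the ages: 3 of 9 old and 6 of 10 young libraries were at 0, all in the second batch. In the first batch the levels were 0.391 to 2.44 CPM in old and 0.522 to 1.19 CPM in young mice, with a log2 fold change of 0.59 ± 0.55 (edgeR adjusted p = 0.708). In VGAT;NuTRAP, where every library had counts, the difference was 0.04 ± 0.14, with an interval of -0.23 to 0.31.

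Oprd1 in VGAT;NuTRAP was at 8.79 to 14.2 CPM (median 10.3) in old and at 9.36 to 20.3 CPM (median 12.3) in young mice. The groups overlapped and the log2 fold change was -0.28 ± 0.13 (unadjusted p = 0.0416, edgeR adjusted p = 0.826). The batches went opposite ways, 0.20 ± 0.21 in the first and -0.50 ± 0.14 in the second (edgeR adjusted p = 0.104), and the value was -0.55 ± 0.20 in males and -0.10 ± 0.14 in females, none of them called. The nociceptin receptor moved little: Oprl1 was at -0.11 ± 0.07 in DAT;NuTRAP and at -0.00 ± 0.05 for VGAT;NuTRAP, with an approximate interval of -0.09 to 0.09.

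Among the precursors, Penk was at 15.0 to 76.5 CPM (median 28.6) in old and at 20.6 to 66.0 CPM (median 42.0) in young DAT;NuTRAP mice, and at 79.6 to 189 CPM (median 136) in old and 82.1 to 151 CPM (median 106) in young VGAT;NuTRAP mice. The log2 fold changes were -0.20 ± 0.24 in DAT;NuTRAP and 0.25 ± 0.15 in VGAT;NuTRAP, neither called. For Pdyn the fold change was 0.36 ± 0.69 in DAT;NuTRAP, against -0.14 ± 0.19 in VGAT;NuTRAP, and for Pnoc -0.15 ± 0.35 against 0.01 ± 0.12. The intervals for DAT;NuTRAP were wide, -1.0 to 1.72 for Pdyn and -0.82 to 0.53 for Pnoc, and do not show that old and young mice were alike.

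**Figure D4:**
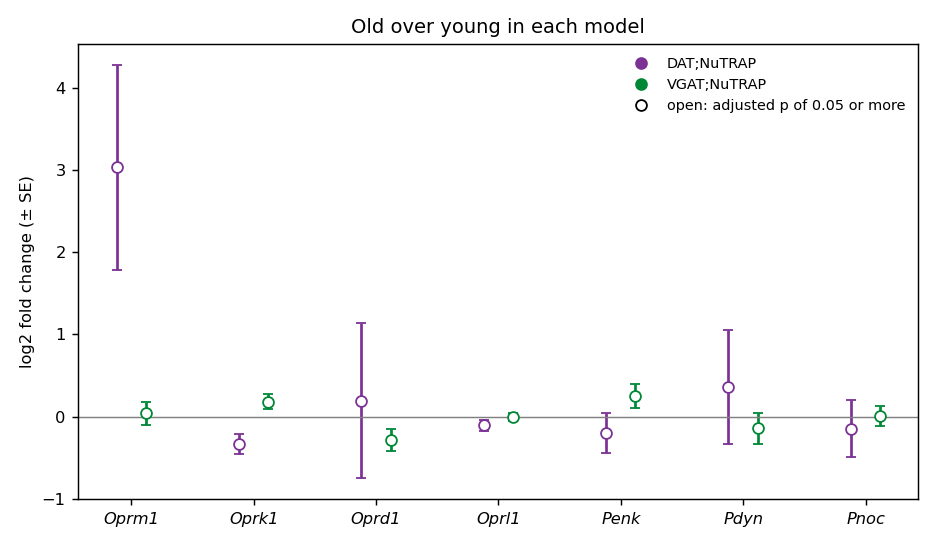
Log2 fold change of old over young mice for each gene (points, with SE bars) in DAT;NuTRAP and in VGAT;NuTRAP; all points are open because none passed an adjusted p of 0.05. The bars are longest for Oprm1, Oprd1 and Pdyn in DAT;NuTRAP, the genes with libraries at 0.

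Taking each sex alone gave no called member either. The background was 0% of 14839 genes in DAT;NuTRAP females, 0% of 15789 in DAT;NuTRAP males, 0.0320% of 15617 in VGAT;NuTRAP females and 0.0315% of 15875 in VGAT;NuTRAP males. At an unadjusted p below 0.05 there were 868 genes in DAT;NuTRAP males, 3 of them members, and 601 in DAT;NuTRAP females with no member. In VGAT;NuTRAP there were 813 in males, 2 of them members, and 873 in females, 1 of them a member. Oprm1 had too few counts to be tested in DAT;NuTRAP females. The age effect in males minus that in females was called for 0% of 16560 genes in DAT;NuTRAP and 0% of 17185 in VGAT;NuTRAP, with 703 and 875 genes at an unadjusted p below 0.05 and, of the members, only Oprm1 in DAT;NuTRAP.

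Penk was higher in male than in female dopamine neurons, the only called sex difference among the members. The 10 males were at 26.2 to 76.5 CPM (median 44.2) and the 9 females at 15.0 to 44.0 CPM (median 28.0), with overlapping ranges. The log2 fold change was 0.78 ± 0.16, a 1.72-fold higher level (edgeR adjusted p = 0.0420), where 0.148% of 14889 genes (22) were called. In the second batch the 5 males, at 47.7 to 76.5 CPM, were all above the 6 females, at 15.0 to 44.0 CPM. The share of all genes whose sexes separate in this way in that batch was not counted. In the first batch the 5 males, at 26.2 to 40.7 CPM, overlapped the 3 females, at 20.6 to 28.0 CPM.

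The call of Penk was near the threshold. Neither batch alone passed the test, with 0.49 ± 0.16 in the first batch (edgeR adjusted p = 0.818) and 0.97 ± 0.22 in the second (0.0726). It was lost in 14 of the 19 fits that left out 1 library, over which the log2 fold change stayed between 0.66 and 0.92. The call held without old female 1, young females 3 and 4, old male 3 or young male 5, and was lost without any other library, the lowest value being without old male 4.

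Some markers of other cells moved with sex in the same libraries, though most lists held no called gene. None of 8 astrocyte, 8 oligodendrocyte, 8 microglia or 10 striatal medium spiny neuron markers was called. The same held for the 4 serotonin neuron, 3 hypothalamic peptide and 1 cholinergic neuron markers tested. Of 5 endothelial markers, 2 were higher in DAT;NuTRAP males, Flt1 (1.04, edgeR adjusted p = 0.0253) and Pecam1 (0.95, 0.0301), and their summed level was 67.6 to 211 CPM in males and 42.5 to 115 CPM in females. Of 10 dopamine neuron markers 1 was lower in males (Aldh1a1, -0.28, edgeR adjusted p = 0.0130), and of 8 GABA neuron and 3 glutamate neuron markers none was called, with median log2 fold changes of 0.24 and 0.65. In the second batch the summed hypothalamic peptide genes were at 12.8 to 103 CPM in males and 7.46 to 26.3 CPM in females, and the summed glutamate neuron markers at 64.0 to 130 CPM in males and 40.2 to 70.3 CPM in females. With the summed GABA neuron markers as a covariate, an alternative added after the data were seen, Penk was at 0.63 ± 0.20 (edgeR adjusted p = 0.927). That covariate did not hold the glutamate neuron, hypothalamic peptide or endothelial genes. The part of these cells in the Penk difference was not tested further.

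The other precursors were not called between the sexes in DAT;NuTRAP. Pnoc was at 5.77 to 19.0 CPM in males and 0.984 to 12.8 CPM in females (0.76 ± 0.33, edgeR adjusted p = 0.838), and Pdyn at 0.678 to 7.79 CPM in males and 0 to 3.17 CPM in females (1.20 ± 0.73). Oprk1 gave -0.30 ± 0.11 (edgeR adjusted p = 0.666). In VGAT;NuTRAP, 0.0822% of 15821 genes (13) were called between males and females and no member was among them. Penk there was at 107 to 189 CPM in males and 79.6 to 166 CPM in females, a log2 fold change of 0.28 ± 0.14 (edgeR adjusted p = 0.527), and of 0.28 ± 0.15 without old male 2. Whether the sex difference of Penk differs between the models was not tested.

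**Figure D5:**
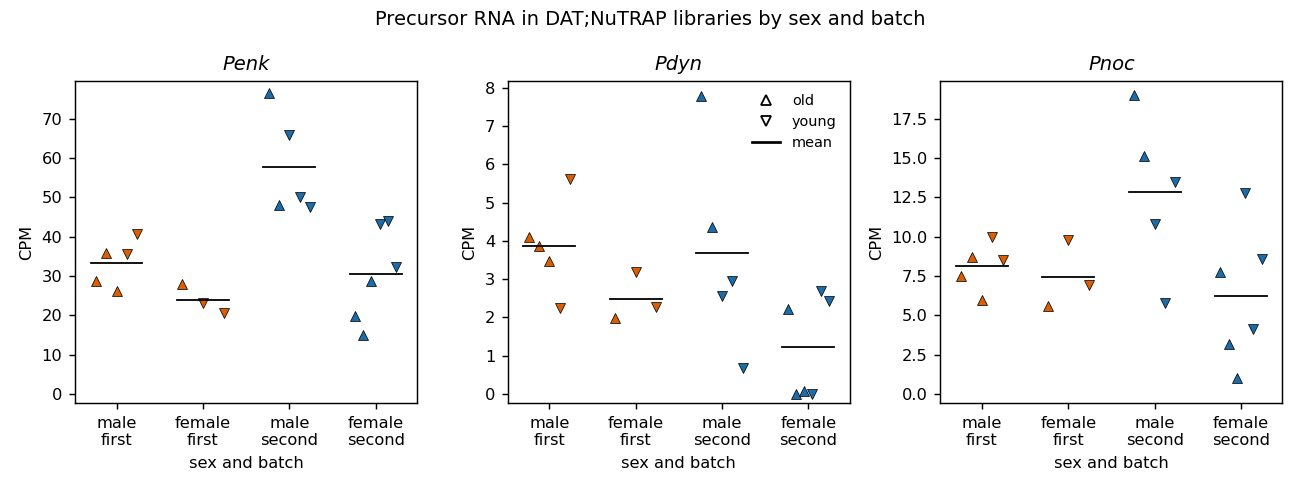
Level (CPM, linear axis from 0) of the 3 precursor genes in each DAT;NuTRAP library by sex and batch; upward triangles are old, downward triangles young mice, and lines are means. In the second batch all 5 males lie above all 6 females for Penk, while Pdyn and Pnoc overlap. The share of all genes separating in this way was not counted.

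For each member, the 3 genes whose log2 CPM followed it most closely across libraries, with batch and age means removed, were named, as a description without a test. Libraries share depth and dissection, so such likeness says nothing of shared control. Over the 19 DAT;NuTRAP libraries and 12753 genes, Oprk1 was most like Ocrl (r = 0.80), Lrrk2 (0.79) and Tcf12 (0.79). Over the 18 VGAT;NuTRAP libraries and 12449 genes, Penk was most like Slc6a4 (r = 0.87), H2-D1 (0.85) and Tph2 (0.84). Slc6a4 and Tph2 are serotonin neuron genes, and the summed level of 5 serotonin neuron markers was 33.9 to 87.2 CPM in these libraries. The others in VGAT;NuTRAP were Phactr3 (0.85), Evc2 (0.80) and H2bc27 (0.79) for Oprm1, Zfp521 (0.80), Diaph1 (0.77) and Arfgap2 (0.74) for Oprd1, and Eif3i (0.91), Plrg1 (0.87) and Tpi1 (0.85) for Oprl1. Pnoc was most like Pex10 (0.92), Sh2b1 (0.80) and Kcnc4 (0.80). Pdyn was most like H2-K1 (0.78), Frmd3 (0.77) and Zfp955b (0.75), but for H2-K1 the value was -0.62 within the first batch and 0.91 within the second, and for Zfp955b 0.38 and 0.79. H2bc27 with Oprm1 was at 0.97 in the first batch and 0.42 in the second. Leaving out the 2 libraries farthest from the median of the member lowered all 3 values of Oprm1, Phactr3 to 0.65, H2bc27 to 0.59 and Evc2 to 0.57. It also lowered Sh2b1 with Pnoc to 0.58, and H2-K1 and Zfp955b with Pdyn to 0.59 and 0.63.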

How the data were processed

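RNA bound to GFP-tagged ribosomes was measured in 37 libraries, 1 per mouse. The authors made poly-A libraries with a directional kit, trimmed the reads, mapped them to mm39 (GRCm39) using STAR 2.7.10b and assigned them to genes using featureCounts; its version and strand setting are not given in the sources used here. The deposited tables hold raw counts, whole numbers with no scaling, for 57180 genes, before the authors removed glial genes or corrected for batch.

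Libraries were grouped by model, age, sex and batch from their labels, and every column had a sample. All 70 pairs of libraries of 1 group were checked for duplicates, and chi-square per degree of freedom was at least 5.46. Counts were filtered (filterByExpr, minimum count 10), scaled by TMM and tested by a robust quasi-likelihood fit in edgeR 4.0.16 (R 4.3.3), with batch as a term and Benjamini-Hochberg adjustment over all genes tested. The models were compared in 1 fit of all 37 libraries. Ages were compared within each model, with both sexes and by sex, and sexes within each model with age as a term. CPM are counts over TMM-scaled library sizes. RPKM divides CPM by the summed exon length of the GENCODE vM39 annotation of GRCm39. The authors' annotation version was not given. Peptide cores were read in frame from its coding sequences. Scripts were tested on simulated data. Libraries held at least 13841253 counts. The limits of 3 counts cover counting error only. SEs were worked out from the fitted fold change and its F statistic and include the spread between mice. The 95% intervals take a normal multiple of the SE, so they are approximate and narrower than the F test implies. For Oprk1 with age in VGAT;NuTRAP the interval was 0.003 to 0.359, beside an unadjusted edgeR p of 0.0567.

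Genes named are the 7 members, the model label genes, up to 2 pathway genes per role and direction with the smallest p between the models, and the 3 genes most like each member. Marker genes that moved with a result, Pecam1, Flt1 and Aldh1a1, and Pomc's neighbours in its marker list were taken after their values were seen. The members and lists were chosen with earlier results of these data known. Alternatives were DESeq2 1.42.0, RLE factors, library size only, no filter or a minimum count of 30, no batch term and a replicate block. Others were sex as a covariate, single batches, no mice of other ages and each library left out. A batch term within each model was also used, read at the first batch. After the data were seen, summed markers of the other neuron type were added as a covariate (GABA neuron markers for DAT;NuTRAP, dopamine neuron markers for VGAT;NuTRAP). No proteins were used here.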

Additional observations from a re-analysis of the deposited data

Results flagged for a closer look

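Pdyn in the library young VGAT;NuTRAP male 4 stood apart from the other young VGAT;NuTRAP libraries, with 6.77 CPM, while the next of the 10 libraries was at 4.99 CPM. The gap is 0.511 of the range of the group. It was the only one of 28 groups (7 genes in 4 groups of model and age) with a library set apart in this way, and chance alone gives about 1 in 20 groups.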

How the results depend on the processing

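Of 962 repeats of a member's test under other settings and 2053 with 1 library left out, 950 and 2039 stayed on their side of the threshold and no called value changed sign. The number of members called between males and females in DAT;NuTRAP was 1 (Penk). It was 0 with RLE factors (edgeR adjusted p = 0.0502), with no batch term (0.628) and without mice of other ages (0.0603). It was also 0 in the first batch only, in the second batch only and with GABA neuron markers as a covariate. Over the left-out libraries it lay between 0 and 1, and it stayed 1 with DESeq2 (adjusted p = 0.00381). In VGAT;NuTRAP it was 1 with no count filter, against 0. Between the models in old mice, Oprd1 was not called in the second batch only (-2.23, adjusted p = 0.0954), and in young mice Oprl1 was not called in the first batch only (-0.22, 0.0900). The causes were not tested.

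Replicate numbers did not pair the libraries: 5 of 9 same-numbered pairs in DAT;NuTRAP and 3 of 8 in VGAT;NuTRAP correlated above 0.1, and 2 and 1 libraries matched their own number best. With the number as a replicate block, Pdyn was called between the models (-1.11 ± 0.45, adjusted p = 0.0370) and no other member's call changed. No paired analysis was possible for males against females because a number lies within 1 sex.

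Counts over all genes moved more. Between the models 10220 genes were called and 5112 to 12108 under other settings (old mice 7907, 3941 to 8636; young mice 8407, 4683 to 9697). Between ages, counts were 1 (1 to 12) in DAT;NuTRAP, 0 (0 to 39) in its females, 0 (0 to 106) in its males, 4 (0 to 52) in VGAT;NuTRAP, 5 (2 to 56) in its females and 5 (0 to 80) in its males. Between sexes they were 22 (7 to 132) in DAT;NuTRAP and 13 (10 to 1008) in VGAT;NuTRAP. The 3 differences of age effects gave 0 (at most 1, 33 and 63). DESeq2 called no member with age. Second-batch DAT;NuTRAP libraries detected the fewest genes, and of these 11, 9 held no count of Oprm1, 4 none of Oprd1 and 2 none of Pdyn.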

Other observations

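Some receptor genes differed between batches within a model, in directions that the models shared for Oprl1 and not for Oprm1. Oprm1 was at 5.94 to 9.52 CPM in the 12 second-batch VGAT;NuTRAP libraries and at 2.19 to 4.91 CPM in the 6 first-batch ones, with no overlap. In DAT;NuTRAP the second batch was instead the lower one, with 9 of 11 libraries at 0, while all 8 first-batch libraries had counts (0.391 to 2.44 CPM). Oprl1 was lower in the second batch of both models, at 116 to 141 CPM against 144 to 175 CPM in VGAT;NuTRAP, with no overlap, and at 96.0 to 123 CPM against 105 to 149 CPM in DAT;NuTRAP. Oprk1 in DAT;NuTRAP averaged 66.8 ± 16.9 CPM (SD, n = 11) in the second batch and 99.6 ± 24.3 CPM (n = 8) in the first, while in VGAT;NuTRAP it averaged 27.3 ± 3.9 CPM (n = 12) and 25.5 ± 4.0 CPM (n = 6). These batch differences were not tested, and the share of all genes whose batches do not overlap was not counted. Both batches hold libraries of both ages and sexes.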
